A study of Homo sapiens with 52 samples.

Results

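WI-38 cells, diploid fibroblasts from human lung that divide only a limited number of times in culture, were compared on day 0 after 24 h in 75 mM KCl (Ca-Sen, group KCl) or 24 h in 250 nM doxorubicin (DDR-Sen, group DXR). Day 0 is the day on which the treatment was washed away. All cells came from young cultures, and untreated young cells (group Untreated) served as the shared control of both treatments. Each group had 2 libraries of mRNA sequencing. The genes described here are those with an authors' mean normalized count of at least 10 both in the KCl table and in the DXR table of day 0, and 14859 of the 59408 listed genes met that rule. Just inside the limit lay TBC1D10C and FAM160A1, whose lower means were 10.005 and 10.011, and just outside it CCDC160 and PLA2G4B, at 9.999 and 9.989.

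High extracellular potassium depolarises the plasma membrane and opens voltage-gated calcium channels, and potassium chloride added to medium also raises its osmolarity. Calcium acts through calmodulin, the phosphatase calcineurin with its NFAT factors, and CREB, which drives immediate early genes. Cells in hypertonic medium use the factor NFAT5 to make transporters and enzymes that gather organic osmolytes such as sorbitol, inositol, taurine and betaine. Doxorubicin traps topoisomerase II on DNA and so breaks it, which stabilises p53. p53 raises CDKN1A (p21), which blocks cyclin-dependent kinases. Repressor complexes then hold down the E2F genes of DNA replication and the genes of mitosis.

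The deposited tables held no value of a single library, and the reads of each library were recovered from the printed means. The recovered libraries carried no replicate number and are therefore named by size. They held 18.97 and 15.26 M counted reads (Untreated), 51.59 and 28.7 M (KCl) and 52.29 and 46.02 M (DXR). Values are given as normalized reads, that is, reads divided by a size factor, in the order larger library, then smaller library. For 451 genes (3.04%), mostly highly expressed, the split of the DXR reads between the 2 DXR libraries was not known, and only the mean of both is given. Pearson correlations across 14408 genes were 0.9901 between the Untreated, 0.9939 between the KCl and 0.9921 between the DXR libraries, and lay between 0.9325 and 0.9416 for KCl with DXR libraries. These are across genes, which are not independent replicates.

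Differences are given on the scale log2(CPM + 0.5), where CPM are counts put on a common scale with those size factors,, with the SE, and are smaller there than the plain ratio for low genes. They were tested with limma, 2-sided, with Benjamini-Hochberg adjustment over all 14859 genes. The limit for a call was an adjusted p of 0.05. In KCl minus DXR, 9075 genes were called (61.1% of the genes tested), 4435 higher after KCl (29.8%) and 4640 lower (31.2%). With a log2 difference of at least 1 as well, 1066 were higher (7.17%) and 1510 lower (10.2%), 17.3% in all. The median difference of all genes was 0.002, with quartiles at -0.492 and 0.428. In all 8757 called genes with a known split, both KCl libraries lay on one side of both DXR libraries. The same held for 11934 of all 14408 genes with a known split, called or not. The calls come from these same libraries, so this adds no separate support.

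Against Untreated, 8766 genes were called after KCl (59%), 4210 higher (28.3%) and 4556 lower (30.7%). After DXR 5676 were called (38.2%), 2840 higher (19.1%) and 2836 lower (19.1%). Fewer genes were called for DXR against Untreated in every fit with a library left out, be it Untreated, KCl or DXR. The fall was largest without the smaller DXR library but was not limited to fits without a DXR library. In these fits the lone library of a group was assumed to vary like the other groups. Both comparisons use the same Untreated libraries. Of the genes higher after KCl than after DXR, 46.2% were called above Untreated after KCl alone, 16% were called below it after DXR alone, and 12.5% were both. Another 8.25% were above Untreated after both treatments, 7.62% below it after both, and 9.33% were called in neither. Of the genes lower after KCl, 45.3% were called below Untreated after KCl alone, 17.1% above it after DXR alone, and 15.6% were both.

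**Figure D1:**
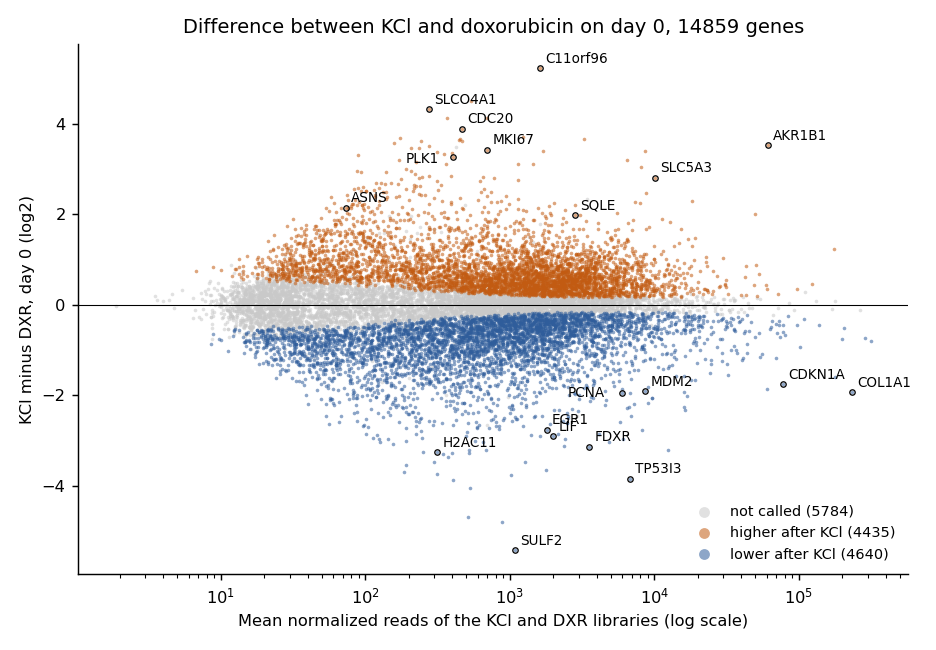
KCl minus DXR on day 0 (log2, y axis) against the mean normalized reads of the 4 treated libraries (log axis), 1 point a gene. Orange points were called higher after KCl (4435), blue points lower (4640), and grey points were not called. C11orf96, AKR1B1 and CDC20 lie at the upper edge, and SULF2 and TP53I3 at the lower edge.

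Genes of the response to hypertonic medium were higher after KCl. Of 22 tested members of the list on osmotic and ion balance (23 listed), 12 were higher, 4 lower and 6 not called, with a median difference of 0.36 (all genes: 0.002), or 0.222 without the smaller DXR library. AKR1B1, the aldose reductase that makes sorbitol, had 110400 and 113550 normalized reads after KCl, 10285 and 9214 after DXR and 6675 and 9539 in Untreated. The DXR and Untreated libraries overlapped, and the KCl libraries averaged 11.5-fold more than the DXR libraries, a log2 difference of 3.52 ± 0.15 (adjusted p = 3.63e-06). SLC5A3, the carrier of myo-inositol, had 16830 and 18525 reads after KCl, 3289 and 1916 after DXR and 1987 and 1715 in Untreated (2.81 ± 0.21, adjusted p = 2.27e-05). The taurine carrier SLC6A6 was higher as well, at 5120 and 5669 against 3035 and 1967 reads, although its DXR libraries lay far apart (1.14 ± 0.17, adjusted p = 0.000679). SLC6A12, the carrier of betaine, fell short of the limit on the means because it was nearly uncounted elsewhere, with 838 and 675 reads after KCl, 1 and 5 after DXR and 0 and 2 in Untreated, before any scaling. NFAT5 itself differed little (0.41 ± 0.10, adjusted p = 0.00768).

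Beta subunits of the sodium-potassium pump, which exports sodium and imports potassium, were higher after KCl. ATP1B3 had 19391 and 19323 reads after KCl against 8667 and 7244 after DXR (1.29 ± 0.09), and ATP1B1 differed by 1.15 ± 0.09 (adjusted p = 1.68e-05 and 2.48e-05). Lower after KCl were HSPA4L, a chaperone of the HSP110 family (-1.84 ± 0.18), the glucose carrier SLC2A1 (-0.94 ± 0.08) and the large calcium-activated potassium channel KCNMA1 (-0.48 ± 0.12). HSPA4L had 1242 and 1814 reads after DXR and 409 and 407 after KCl, and it passed the test above Untreated after DXR and below it after KCl.

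**Figure D2:**
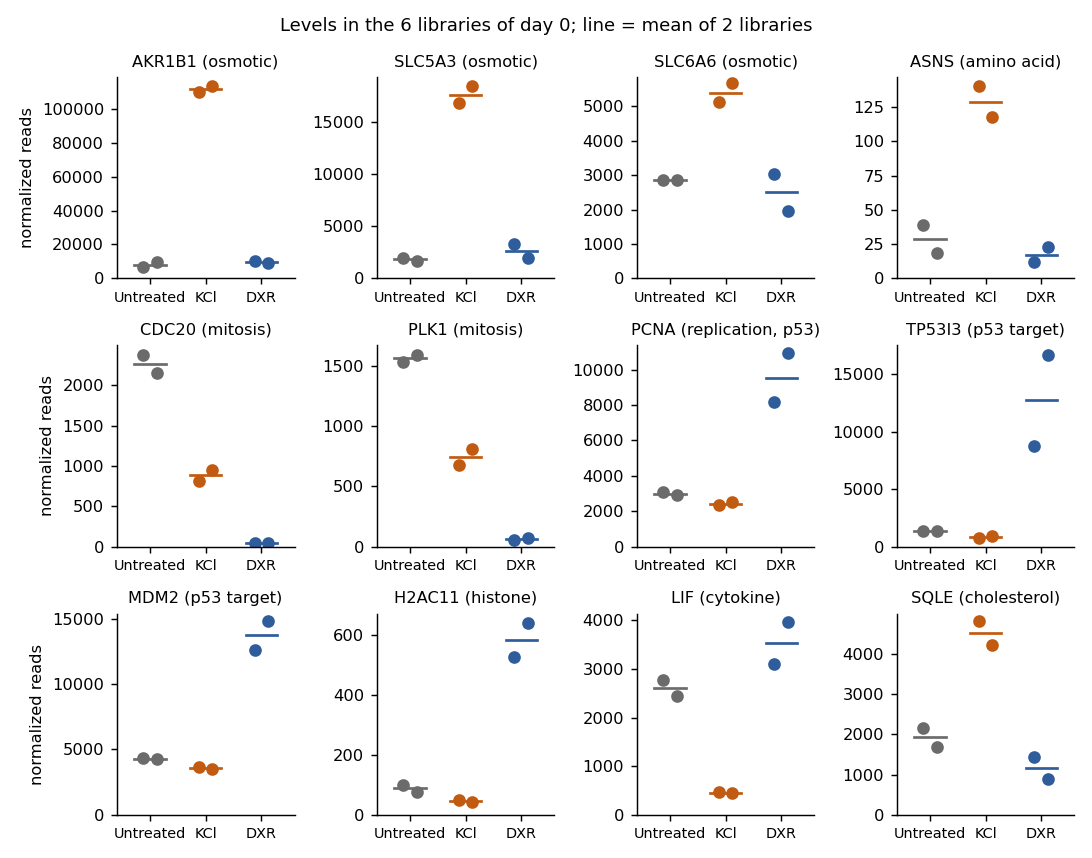
Normalized reads (y axis, from 0) of 12 genes in the 2 Untreated, 2 KCl and 2 DXR libraries of day 0; points are libraries, with the larger library on the left, and lines are the means of 2 libraries. AKR1B1 and SLC5A3 stand out after KCl, TP53I3, MDM2, PCNA and H2AC11 after DXR, while CDC20 and PLK1 fall from Untreated to KCl to DXR and LIF is low after KCl.

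The list on calcium handling and calcineurin feedback had no common direction. Of 36 tested members (38 listed), 9 were higher after KCl, 14 lower and 13 not called, and the median of -0.04 turned to 0.0172 when libraries were scaled by their totals and to 0.0428 without the larger DXR library. ORAI3, a pore subunit of store-operated calcium entry, had 966 and 1105 reads after DXR, 145 and 143 after KCl and 283 and 291 in Untreated (-2.71 ± 0.11, adjusted p = 3.63e-06). It was therefore above Untreated after DXR and below it after KCl, with no overlap of groups. NFATC1, a factor that calcineurin activates and that raises its own transcription, had 632 and 672 reads after KCl against 194 and 195 after DXR and 278 and 277 in Untreated (1.67 ± 0.11, adjusted p = 1.22e-05). RCAN1 and RCAN2, feedback inhibitors of calcineurin, were higher after KCl by 0.58 ± 0.12 and 0.98 ± 0.21, and the calcineurin subunit PPP3CA by 0.68 ± 0.08. The catalytic subunit PPP3CB was lower by 0.81 ± 0.07 on the log2 scale, and PPP3CC was not called (0.05 ± 0.14), while lower too were the kinases CAMKK1 (-1.34 ± 0.24) and CAMK2D (-0.84 ± 0.06).

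Immediate early genes, which rise within minutes of a calcium or growth factor signal, were counted here after 24 h of treatment. Of 27 tested (30 listed), 4 were higher after KCl, 11 lower and 12 not called, with a median of -0.12 that ran from -0.49 without the smaller KCl library to 0.151 without the larger one. EGR1 had 369 and 469 reads after KCl, 4465 and 1900 after DXR and 1716 and 1291 in Untreated (-2.76 ± 0.34, adjusted p = 0.000249), so that the KCl libraries were the lowest of all 6. EGR3 was lower with uneven DXR libraries of 224 and 33.3 reads (-2.59 ± 0.61), and the difference was -1.44 without the larger DXR library. The ERK phosphatase DUSP5 (-1.83 ± 0.11) and JUN (-1.07 ± 0.10) were lower as well. Higher after KCl were the orphan nuclear receptor NR4A1 (1.26 ± 0.28), ATF3 (1.01 ± 0.20), the clock gene PER1 (0.65 ± 0.17) and the CREB relative CREM (0.41 ± 0.13). FOS and ARC differed more between libraries of 1 group than between groups. FOS had 117 and 571 reads after KCl and 522 and 82.2 after DXR, and ARC 83.0 and 1733 after KCl, and neither was called (adjusted p = 0.789 and 0.121).

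Targets of p53 were lower after KCl than after DXR. Of 29 tested (30 listed), 22 were lower, 4 higher and 3 not called, and the median was -1.17. Against Untreated, 27 of the 29 were called higher after DXR (median 1.38), whereas after KCl 18 were called higher and 5 lower (median 0.35). TP53I3, an oxidoreductase induced by p53, had 780 and 877 reads after KCl, 8778 and 16701 after DXR and 1383 and 1395 in Untreated (-3.85 ± 0.24, adjusted p = 1.21e-05). FDXR, the mitochondrial ferredoxin reductase, differed by -3.14 ± 0.14, TIGAR, a brake on glycolysis, by -2.88 ± 0.12 and XPC, which finds bulky DNA lesions, by -2.50 ± 0.10. All 4 were called below Untreated after KCl and above it after DXR.

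Other p53 targets were above Untreated after both treatments, and more so after DXR. CDKN1A had 35053 and 35378 reads after KCl, a mean of 119650 after DXR and 26596 and 28695 in Untreated. The difference of -1.76 ± 0.07 (adjusted p = 6.76e-06) stands beside a rise over Untreated of 0.35 ± 0.07 after KCl and 2.11 ± 0.07 after DXR. GDF15, a secreted stress cytokine, had 6787 and 6610 reads after KCl, 14223 and 21826 after DXR and 1289 and 1178 in Untreated (-1.39 ± 0.17, adjusted p = 0.000217). The autophagy factor TP53INP1 (-1.33 ± 0.13) and BBC3, the killer protein PUMA (-1.18 ± 0.16), had the same order. MDM2, the ligase that degrades p53, was called slightly below Untreated after KCl (-0.25 ± 0.08) and above it after DXR (1.67 ± 0.08), with 3681 and 3534 against 12628 and 14828 reads.

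The 4 targets higher after KCl were PPM1D, the phosphatase WIP1 that shuts off the damage response (0.73 ± 0.12), PHLDA3, an AKT inhibitor (0.60 ± 0.06), PMAIP1, the killer protein NOXA (0.46 ± 0.12), and the nuclease AEN (0.39 ± 0.09). PPM1D had 2501 and 2875 reads after KCl, 1533 and 1702 after DXR and 654 and 804 in Untreated. CDKN2A, the gene of p16, was higher after KCl, at 662 and 711 against 525 and 578 reads (0.31 ± 0.09, adjusted p = 0.0201), but it lost the call without either KCl library and without the larger DXR library.

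Genes of mitosis set the treatments apart most evenly. Of 37 tested (38 listed), 35 were higher after KCl than after DXR, 1 was lower and 1 was not called, with a median of 2.32. Both groups lay below Untreated. The median was -1.70 after KCl and -4.12 after DXR against the shared Untreated libraries, and 36 and 37 of the 37 were called lower. CDC20, the activator of the anaphase-promoting complex, had 2378 and 2155 reads in Untreated, 815 and 956 after KCl and 43.5 and 46.0 after DXR (3.89 ± 0.12, adjusted p = 2.58e-06), or 19.8-fold more after KCl than after DXR. MKI67, the proliferation marker Ki-67, had 6263 and 4896, 1144 and 1420, and 98.8 and 110 reads in the same order (3.43 ± 0.14). The kinesin KIF20A (3.33 ± 0.13), the centromere histone CENPA (3.31 ± 0.18) and the kinase PLK1 (3.26 ± 0.13) followed. For these genes the 3 groups formed 3 levels without overlap. ECT2, which places the cleavage furrow, stood apart, since it was above Untreated after KCl (0.33 ± 0.08). The checkpoint protein BUB3 was the member lower after KCl than after DXR (-0.47 ± 0.06).

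The promoters of such genes are known for CCAAT boxes, bound by NF-Y, and for the cell cycle genes homology region, where the DREAM and MuvB complexes bind. Sequences from RefSeq (GRCh38.p14) upstream of the start site are shown for 3 mitotic genes, 5′ to 3′ on the gene's strand, with TTTGAA and CCAAT in capitals. They lie at chr1:43358871-43358980 (plus strand), chr16:23678799-23678888 (plus) and chr15:59105046-59105145 (plus), and each ends on the base before the start.
CDC20: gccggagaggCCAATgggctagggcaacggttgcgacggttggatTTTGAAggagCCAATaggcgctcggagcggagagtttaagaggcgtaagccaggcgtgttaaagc
PLK1: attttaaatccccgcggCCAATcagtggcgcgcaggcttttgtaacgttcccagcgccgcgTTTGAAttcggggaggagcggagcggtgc
CCNB2: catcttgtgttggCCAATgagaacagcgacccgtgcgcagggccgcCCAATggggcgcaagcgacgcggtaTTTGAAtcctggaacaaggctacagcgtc
TTTGAA starts 65 bases before the start site in CDC20 and 29 before it in PLK1 and in CCNB2 (cyclin B2, 256 and 269 reads after KCl, 76.4 and 50.3 after DXR, 1.83 ± 0.17). Searched on both strands of the 250 bases before and 50 after each start, TTTGAA was found in 25 of 38 listed start sites of 31 mitotic genes (65.8%), in 2.44% of those of the DNA replication list, in 10.6% of those of all tested genes and in 15.2% of all 35116 promoters. CCAAT was found in 73.7% of the mitotic and 58.5% of the replication promoters, against 34.4% for tested genes. The promoter table named 10501 of the 14859 genes (70.7%). A match is a match of letters and not a measured binding site.

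Genes of DNA replication were low after both treatments and split between them. Of 37 tested, 21 were higher after KCl, 7 lower and 9 not called, with a median of 0.52. Against Untreated, 35 were called lower after KCl (median -1.63) and 34 after DXR (median -2.18). The licensing factor CDC6 had 284 and 275 reads after KCl, 59.0 and 55.9 after DXR and 965 and 839 in Untreated (2.01 ± 0.13, adjusted p = 1.14e-05). MCM10 (1.61 ± 0.23), CDT1 (1.54 ± 0.18), the methylation reader UHRF1 (1.44 ± 0.11) and subunits of the MCM helicase such as MCM3 (1.25 ± 0.09) and MCM6 (0.89 ± 0.12) were also higher after KCl. The exceptions were large. DNA ligase LIG1 had 168 and 195 reads after KCl, 894 and 1139 after DXR and 932 and 808 in Untreated (-2.38 ± 0.14, adjusted p = 1.02e-05), and was called below Untreated after KCl, while its difference after DXR did not pass the test. PCNA, the sliding clamp and itself a p53 target, had 2321 and 2520 reads after KCl, 8152 and 10937 after DXR and 3107 and 2890 in Untreated (-1.96 ± 0.13). Thymidylate synthase TYMS (-1.46 ± 0.17) and GINS4 (-1.31 ± 0.16) were lower too.

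The promoter of MCM6 is shown because it carries the E2F site TTTGGCGC (capitals) at 2 positions, beside CCAAT boxes read on the other strand as ATTGG. The stretch runs from 160 to 41 bases before the start, at chr2:135876484-135876603 on the minus strand (RefSeq, GRCh38.p14).
MCM6: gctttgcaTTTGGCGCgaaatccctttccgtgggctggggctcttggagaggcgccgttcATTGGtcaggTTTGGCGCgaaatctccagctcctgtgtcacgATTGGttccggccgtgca
TTTGGCGC was found in 6 of 41 start sites of the replication list (14.6%), in 0% of the mitotic ones and in 0.944% of those of tested genes. MCM6 had 1545 and 1312 reads in Untreated, 321 and 345 after KCl and 177 and 168 after DXR.

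Replication-dependent histones moved against the other replication genes. Of 20 tested (65 listed, most of them with almost no reads), 17 were lower after KCl than after DXR, 1 was higher and 2 were not called, with a median of -1.20. Without the limit on the means, over every listed histone gene with a read, the median was -0.269. Against Untreated 19 were called higher after DXR (median 1.92) and 12 after KCl (median 0.89). H2AC11 had 48.0 and 44.2 reads after KCl, 526 and 641 after DXR and 99.0 and 77.0 in Untreated (-3.27 ± 0.17, adjusted p = 6.67e-06). H2BC8 had 210 and 198 reads after KCl against 1338 and 1447 after DXR (-2.68 ± 0.12), and H2BC21 differed by -2.52 ± 0.17. Most mRNAs of these genes normally end in a stem-loop and not in a poly(A) tail, and how mRNA was selected for sequencing is not given in the sources used here. Many histone genes are near-identical copies, so that the split of reads among copies is uncertain.

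LMNB1, the nuclear lamin B1 that senescent cells lose, was low after both treatments. It had 1733 and 1470 reads in Untreated, 154 and 215 after KCl and 73.9 and 57.4 after DXR (1.29 ± 0.18, adjusted p = 0.000494). The groups again formed 3 levels without overlap.

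**Figure D3:**
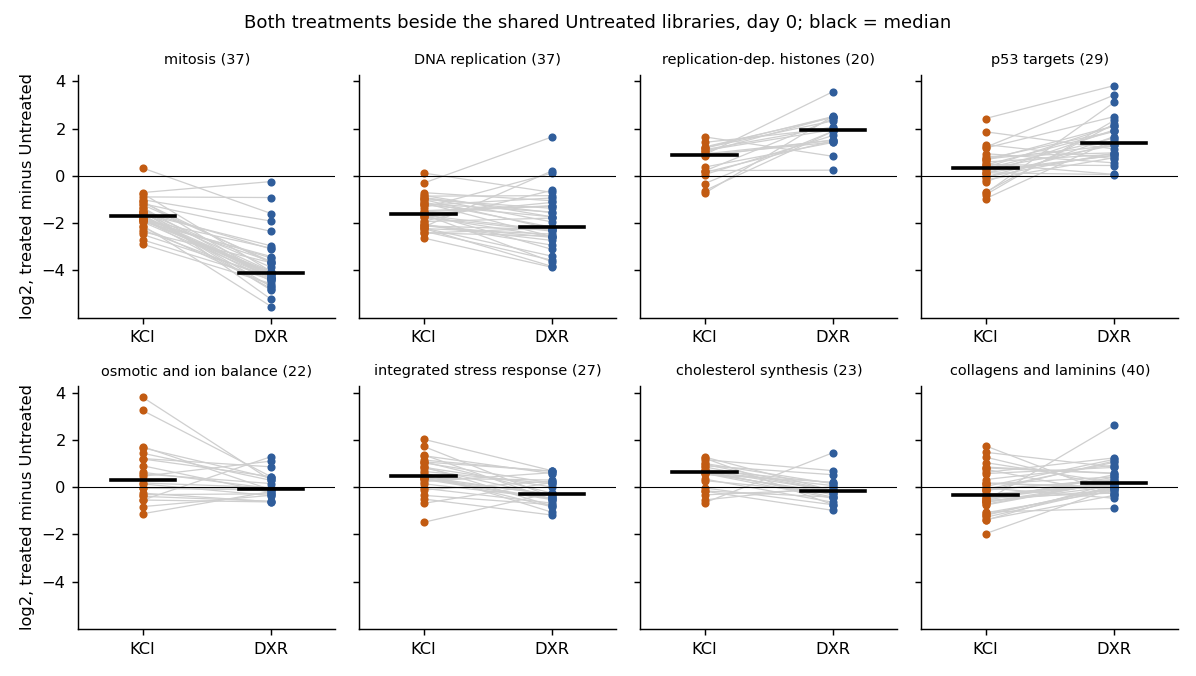
Log2 difference from the shared Untreated libraries (y axis) after KCl (orange) and after DXR (blue) for the tested members of 8 gene lists; grey lines join a gene, black bars are medians and the number tested stands in each title. Mitotic genes fall further after DXR (median -4.12) than after KCl (-1.70), and p53 targets and histones rise further after DXR.

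Collagens and other matrix genes were mostly lower after KCl. Of 40 collagen and laminin genes tested (56 listed), 24 were lower, 7 higher and 9 not called, with a median of -0.55. Against Untreated, 20 were called lower after KCl and 3 after DXR. COL1A1, the main chain of type I collagen, had 101970 and 90671 reads after KCl, a mean of 368450 after DXR and 424890 and 332810 in Untreated (-1.94 ± 0.14, adjusted p = 3.92e-05). COL1A2 (-1.60 ± 0.14), COL4A1 (-1.23 ± 0.08) and COL6A3 (-0.94 ± 0.14) were also lower after KCl, and none of these 4 passed the test against Untreated after DXR. COL7A1, the anchoring fibril collagen, was different. It had 2697 and 2149 reads after KCl, a mean of 22333 after DXR and 3986 and 3233 in Untreated (-3.21 ± 0.13), so that DXR raised it by 2.63 ± 0.13 and KCl lowered it by 0.57 ± 0.13. Higher after KCl were the laminin chains LAMB4 (2.08 ± 0.23, 110 and 90.6 reads against 6.83 and 17.0) and LAMB1 (1.05 ± 0.07).

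Of 21 matrix proteases and inhibitors tested (25 listed), 14 were lower after KCl and 3 higher, with a median of -0.91. The collagenase MMP1 had 3586 and 4255 reads after KCl, 16768 and 11338 after DXR and 4498 and 7578 in Untreated (-1.81 ± 0.25, adjusted p = 0.000431). ADAMTS2, which trims procollagen, was at 952 and 1179 reads after KCl, against 3693 and 3600 after DXR and 3774 and 3968 in Untreated (-1.77 ± 0.10). Tissue plasminogen activator PLAT (-1.58 ± 0.14), MMP14 (-1.52 ± 0.07) and TIMP3 (-1.16 ± 0.08) were lower as well, while ADAMTS1 was higher (1.30 ± 0.07). Of 25 actin and SRF targets, 15 were lower and 4 higher, with a median of -0.43. The KCl and DXR libraries were known to lie apart in 6 of the 25, so most of these calls rest on 1 pooled DXR value. LMOD1, a nucleator of actin filaments in smooth muscle, had 648 and 802 reads after KCl, 2906 and 2634 after DXR and 3486 and 3279 in Untreated (-1.92 ± 0.11). MYLK, the myosin light chain kinase, differed by -1.32 ± 0.08 and smooth muscle actin ACTA2 by -0.59 ± 0.07, while the LIM protein FHL1 was higher after KCl (1.21 ± 0.11).

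Cytokines and NF-kB targets divided evenly, with 6 of 18 tested (28 listed) higher after KCl, 6 lower and 6 not called. The median was -0.35, or -0.0576 without the larger KCl library. TNFAIP6, the hyaluronan-binding protein TSG-6, had 838 and 911 reads after KCl, 36.0 and 86.4 after DXR and 46.1 and 52.0 in Untreated (3.61 ± 0.28, adjusted p = 2.67e-05). PTGS2, the cyclooxygenase COX-2, was higher with uneven KCl libraries (353 and 756 reads against 137 and 94.9, 2.04 ± 0.44). LIF, a cytokine of the IL-6 family, had 461 and 449 reads after KCl, 3104 and 3964 after DXR and 2767 and 2446 in Untreated (-2.90 ± 0.12, adjusted p = 3.56e-06). VCAM1, an adhesion molecule, fell after both treatments, to 51.6 and 51.8 reads after KCl and 296 and 331 after DXR from 1197 and 731 (-2.28 ± 0.21). IL6 had 45.7 and 75.5 reads after KCl and 125 and 189 after DXR (-1.18 ± 0.28, adjusted p = 0.0072), a call that was lost without the larger KCl or the smaller DXR library. CCL2 did not pass the test (0.10 ± 0.32, adjusted p = 0.811), and its 2 DXR libraries held 356 and 686 reads. Below the limit on the means, IL1B had 9 and 2 reads after KCl and 76 and 217 after DXR, before scaling.

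Interferon-stimulated genes were lower after KCl in 11 of 25 tested (30 listed) and higher in 4, with a median of -0.46, or -0.279 without the smaller DXR library. The sensor OASL had 17.2 and 15.1 reads after KCl against 93.8 and 93.5 after DXR (-1.77 ± 0.17), and the ubiquitin-like ISG15 685 and 674 against 1728 and 2166 (-1.49 ± 0.12). IRF1 (1.18 ± 0.12) and DTX3L (1.13 ± 0.11) were higher after KCl.

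Genes of the integrated stress response, which the factor ATF4 drives when translation initiation is slowed or amino acids run short, were higher after KCl. Of 27 tested, 21 were higher, 3 lower and 3 not called, with a median of 0.76. Against Untreated, 17 were called higher after KCl, whereas 12 were called lower after DXR. ATF4 had 16930 and 18639 reads after KCl, 5054 and 4510 after DXR and 7001 and 6739 in Untreated (1.89 ± 0.08, adjusted p = 3.63e-06). ASNS, the asparagine synthetase, had few reads in all libraries, at 141 and 118 after KCl, 11.8 and 22.7 after DXR and 39.3 and 18.7 in Untreated, where the last 2 groups overlapped (2.15 ± 0.27, adjusted p = 0.000275). PHGDH, the entry to serine synthesis (1.68 ± 0.16), the arginine carrier SLC7A1 (1.68 ± 0.15), NUPR1 (1.33 ± 0.17) and TRIB3 (1.22 ± 0.12) were higher too. DDIT3, the factor CHOP, was above Untreated after both treatments and higher after KCl by 0.38 ± 0.13. ALDH1L2 (-1.26 ± 0.17) and STC2 (-0.88 ± 0.06) went the other way.

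The promoter of ASNS holds a well known site of ATF4, the amino acid response element TGATGAAA (capitals). It starts 68 bases before the start site used here, which lies inside the annotated span of the gene (97851677 to 97928441). The stretch lies at chr7:97872409-97872498 on the minus strand (RefSeq, GRCh38.p14).
ASNS: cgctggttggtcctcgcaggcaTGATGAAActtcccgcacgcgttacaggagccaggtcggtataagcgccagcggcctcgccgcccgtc
On either strand this word was found in 3 of 37 start sites of the list (8.11%, in ASNS, GARS1 and SLC7A1) and in 0.579% of those of tested genes. All 3 genes were called higher after KCl, as were 21 of the 27 tested genes of the whole list. Action of ATF4 at these sites was not tested.

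Chaperones of the endoplasmic reticulum, targets of the unfolded protein response, were lower after KCl. Of 21 tested (22 listed), 12 were lower, 3 higher and 6 not called, with a median of -0.32, or -0.195 without the smaller DXR library. CRELD2 had 591 and 623 reads after KCl, 1819 and 2193 after DXR and 2060 and 1886 in Untreated (-1.69 ± 0.10, adjusted p = 1.02e-05). PDIA4 (-1.49 ± 0.11), MANF (-1.07 ± 0.07) and HSPA5, the chaperone BiP (-0.93 ± 0.09), were lower, and none of these 4 was called above Untreated after DXR. XBP1 (0.64 ± 0.08), HERPUD1 (0.80 ± 0.08) and DNAJC3 (0.81 ± 0.07) were higher after KCl.

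Chaperones of the cytosol went the other way. Of 17 heat shock genes tested (20 listed), 12 were higher after KCl, 3 lower and 2 not called, with a median of 0.45. The small heat shock protein CRYAB had 3792 and 3571 reads after KCl, 961 and 977 after DXR and 466 and 745 in Untreated (1.91 ± 0.18, adjusted p = 6.27e-05). HSPH1, an exchange factor of HSP70, had 19379 and 20854 reads after KCl, 6036 and 5280 after DXR and 6128 and 6073 in Untreated (1.83 ± 0.08). DNAJA1 (1.68 ± 0.06), FKBP4 (1.12 ± 0.07) and HSP90AA1 (0.89 ± 0.08) were higher. The 3 lower genes were HSPA4L, also on the osmotic list (-1.84 ± 0.18), HSPB1 (-0.83 ± 0.07) and HSPB8 (-0.44 ± 0.10). HSPA1A and HSPA1B, near-identical copies, were nearly uncounted in all 6 libraries, which says nothing of their level.

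CHORDC1, a partner of HSP90, is shown because its promoter holds the heat shock element GAANNTTC at adjoining positions (capitals). The stretch lies at chr11:90223050-90223119 on the minus strand (RefSeq, GRCh38.p14).
CHORDC1: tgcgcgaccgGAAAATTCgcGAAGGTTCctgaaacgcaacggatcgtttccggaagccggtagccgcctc
The word reads the same on both strands apart from its open positions and was found in 40% of the start sites of the list and in 4.94% of those of tested genes. CHORDC1 had 521 and 978 reads after KCl and 416 and 206 after DXR, so that both groups were uneven (1.24 ± 0.45, adjusted p = 0.0424).

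Genes of cholesterol synthesis were higher after KCl in 17 of 23 tested (24 listed) and lower in 2, with a median of 0.82. Against Untreated, 16 were called higher after KCl and 6 lower after DXR. Squalene epoxidase SQLE had 4804 and 4217 reads after KCl, 1429 and 897 after DXR and 2153 and 1695 in Untreated (1.98 ± 0.20, adjusted p = 9.52e-05). HMGCS1 (1.43 ± 0.18) and the regulator of the pathway, SREBF2 (1.03 ± 0.14), were higher. TM7SF2, a sterol reductase, was lower after KCl (-2.12 ± 0.29), with 102 and 148 reads against 512 and 677.

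Glycolysis and hypoxia genes had no common direction, with 10 of 25 tested (27 listed) higher after KCl, 8 lower and a median of 0.08 that turned to -0.0886 without the larger DXR library. The carbonic anhydrase CA12 (-2.17 ± 0.17), PFKFB4 (-2.08 ± 0.19) and hexokinase HK2 (-1.69 ± 0.10) were lower, HK2 with 560 and 671 reads after KCl, 1958 and 2055 after DXR and 2836 and 2677 in Untreated. Adrenomedullin ADM (1.46 ± 0.08) and VEGFA (0.72 ± 0.15) were higher. Of the 13 mitochondrially encoded genes of the respiratory chain, 12 were lower after KCl and none was higher, with a median of -0.45. Both KCl libraries were known to lie on one side of both DXR libraries in 2 of the 13. Most of these calls therefore rest on 1 pooled DXR value, without a spread between DXR libraries. MT-CO1 had 215310 and 216640 reads after KCl, a mean of 361870 after DXR and 277970 and 288670 in Untreated (-0.74 ± 0.10, adjusted p = 0.000625), and MT-CO3 (-0.72 ± 0.08) and MT-ND1 (-0.71 ± 0.07) were lower too. All mitochondrial genes together took 3.19 and 3.11% of the reads after KCl, 4.27 and 4.26% after DXR and 3.29 and 3.45% in Untreated. Of 80 ribosomal protein genes tested (84 listed), 9 were higher and 14 lower, with a median of -0.01 that turned to 0.0649 with scaling by library totals and to 0.0647 without the smaller DXR library. RPS27L, a p53 target, was lower after KCl (-0.70 ± 0.09), as was RPL26L1 (-0.98 ± 0.12), while RPL22L1 was higher (0.70 ± 0.10). RPS18 and RPS25 were nearly uncounted in all libraries, which says nothing of their level.

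**Figure D4:**
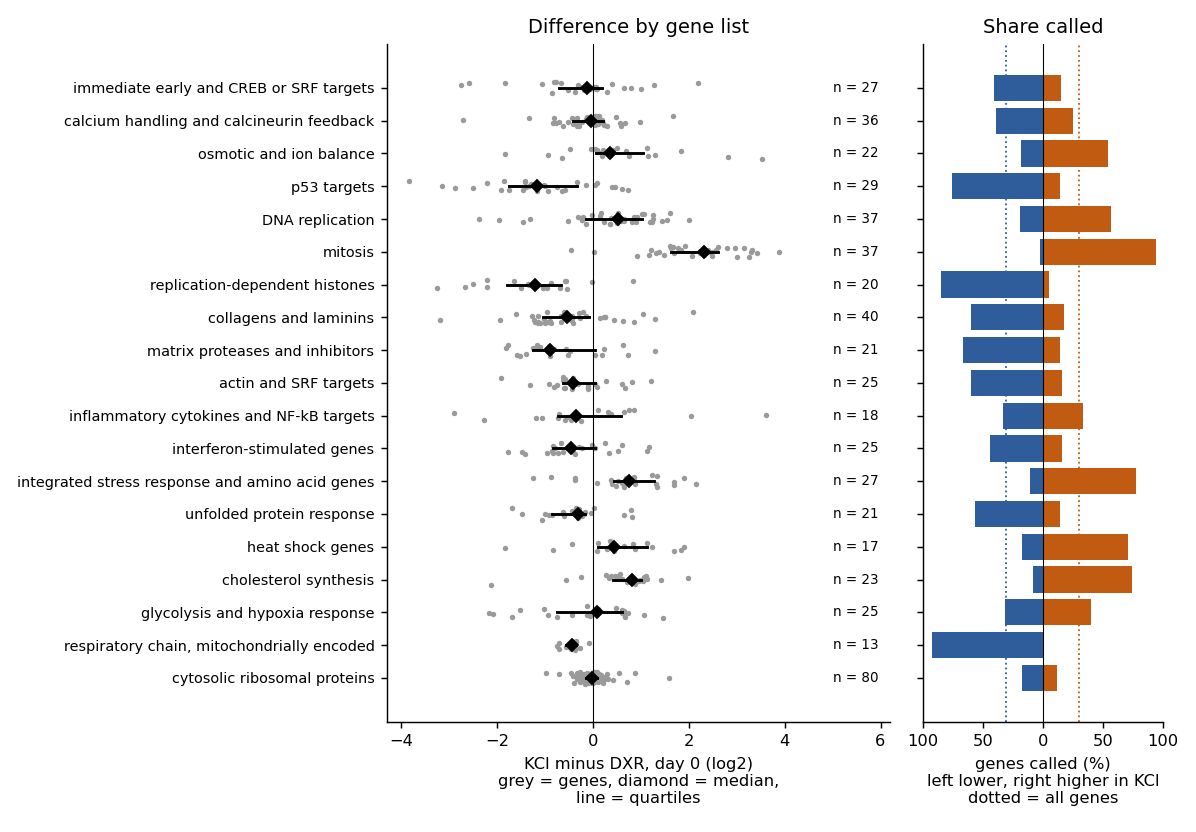
Left, KCl minus DXR on day 0 (log2, x axis) for the tested members of 19 gene lists (grey points), with the median (diamond) and quartiles (line). Right, percent of members called lower (blue, leftward) and higher (orange, rightward) after KCl, with dotted lines at the shares of all genes, 31.2% and 29.8%. Mitosis, the integrated stress response, cholesterol synthesis and heat shock genes lie to the right, and p53 targets, histones and mitochondrially encoded genes to the left.

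In all 6 libraries, markers of fibroblasts summed to far more reads than those of other cells. Among the latter, TEK and KRT19 were well counted, with means of 3216 and 1359 reads in Untreated. The 12 fibroblast markers summed to between 592900 and 606100 normalized reads after KCl, 1231000 and 1234000 after DXR and 1014000 and 1296000 in Untreated. Among them PDGFRA was higher after KCl (31178 and 29248 reads against 7178 and 5248, 2.30 ± 0.14), as was S100A4 (1.95 ± 0.10), while the collagens and FN1 (-0.80 ± 0.16) were lower. The 10 epithelial markers summed to 399 to 521 reads after KCl, 1163 to 1300 after DXR and 1189 to 1635 in Untreated, most of them KRT19, which was lower after KCl (-1.79 ± 0.17), with NKX2-1 at 0 in all 6 libraries. The 10 markers of white blood cells summed to 80.7 to 98.1 reads after KCl, 129 to 135 after DXR and 41.0 to 41.6 in Untreated. The 10 of neurons summed to 462 to 571 after KCl, 598 to 636 after DXR and 444 to 512 in Untreated, and the 8 of endothelial cells to 2684 to 2711, 1847 to 2328 and 3148 to 3400. Most of the endothelial reads were TEK, which was 0.34 ± 0.11 higher after KCl, a call lost without either KCl library or the smaller DXR library. Their part in the other differences was not tested. Below the limit, PECAM1 had 216 and 158 reads after KCl, 27 and 21 after DXR and 0 and 3 in Untreated, before scaling. Among the neuronal markers SYT1 (0.76 ± 0.15) and MAP2 (0.61 ± 0.23) were higher after KCl. SNAP25 (-2.11 ± 0.25), TUBB3 (-1.26 ± 0.23) and SYN1 (-1.01 ± 0.23), listed as neuronal, and CD14 (-0.73 ± 0.17) were lower after KCl and had few reads in every library. Fewer cells of a type and less RNA per cell cannot be told apart in such bulk samples.

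The largest single differences were mostly genes of none of these lists. C11orf96 had 2603 and 3715 reads after KCl, 59.0 and 76.5 after DXR and 18.8 and 10.4 in Untreated (5.23 ± 0.22, adjusted p = 3.63e-06). The myosin heavy chain MYH15 had 991 and 1095 reads after KCl against 29.2 and 32.6 after DXR, and the organic anion carrier SLCO4A1 501 and 575 against 13.0 and 10.6 (4.32 ± 0.18). SHOC1, a gene of meiotic recombination (4.13 ± 0.24), the endothelin receptor EDNRB (4.12 ± 0.28), the protease-like PRSS35 (3.67 ± 0.19), RFTN2 (3.66 ± 0.24) and the hexokinase relative HKDC1 (3.62 ± 0.20) were each called above Untreated after KCl and not after DXR. HKDC1 was also called below Untreated after DXR (-0.70 ± 0.20). GBP2, an interferon-inducible GTPase, was above Untreated after KCl (1.97 ± 0.19) and below it after DXR (-1.74 ± 0.19), a difference of 3.70 ± 0.19. Of the 12 largest, CDC20 and the spindle protein ASPM (3.64 ± 0.13) were low after both treatments, and 1 was an unnamed clone.

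Among the 12 largest in the other direction, SULF2, which trims sulfate from heparan sulfate outside the cell, had 31.4 and 31.3 reads after KCl, 1424 and 2841 after DXR and 51.2 and 68.7 in Untreated (-5.42 ± 0.29, adjusted p = 7.7e-06). The carrier SLC16A6 had 15.4 and 34.5 reads after KCl against 1011 and 1001 (-4.68 ± 0.33). FUCA1, a lysosomal fucosidase (-3.87 ± 0.19), the carnosine synthase CARNS1 (-3.70 ± 0.19), TLCD1 (-3.74 ± 0.27) and INSYN2A (-3.55 ± 0.27) were likewise high after DXR. PCYOX1L (-4.05 ± 0.13), TMEM35A (-3.76 ± 0.15), LRRN3 (-3.67 ± 0.13) and GASK1B (-3.47 ± 0.20) were above Untreated after DXR and below it after KCl. SLC16A6 and TLCD1 had the same order, and differed from Untreated by -1.94 ± 0.33 and -1.07 ± 0.27 after KCl. LRRN3 had 224 and 275 reads after KCl, 3251 and 3422 after DXR and 1345 and 1703 in Untreated. The proteasome subunit PSMC4 (-4.80 ± 0.57) had 848 and 2588 reads in the DXR and 128 and 35.4 in the Untreated libraries, a wide gap within both groups. Gaps of over 2 on the log2 scale between the libraries of a group were found in 31 to 40 genes a group. At the largest such gap, the elongation factor EEF1B2 had 72.0 and 5627 reads after DXR.

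The difference moved with the length of the gene. Of the 14859 genes, 13608 (91.6%) had a span from start to end in the annotation. In genes under 5 kb the median of KCl minus DXR was -0.153, and it rose through -0.0571 at 10 to 20 kb to 0.126 at 100 to 200 kb and stood at 0.0225 in the 183 genes of 500 kb or more. The share called higher after KCl was 16% under 5 kb and 40.2% at 100 to 200 kb, and the share called lower was 35.6% and 26.5%. Against Untreated, the median at 100 to 200 kb was 0.0659 after KCl and -0.0609 after DXR. Median untreated levels also differed, from 186 normalized reads under 5 kb to 1038 at 100 to 200 kb, and their part in the trend was not tested.

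The comparison was then followed to day 2 and day 16 after the wash, in 1 fit with 14 libraries. Day 2 was chosen after seeing the data, since the reads of day 1 could not be recovered for enough genes. On day 2, 1854 genes differed between KCl and DXR (12.5%), 1021 higher after KCl (6.87%) and 833 lower (5.61%), and on day 16, 4533 (30.5%), 2358 higher (15.9%) and 2175 lower (14.6%). The difference itself had changed from day 0 in 7904 genes (53.2%) by day 2 and in 7710 (51.9%) by day 16. Of the genes higher after KCl on day 0, 24.6% were called higher on day 16 and 10.8% lower, and of those lower on day 0, 23.3% were called lower and 11.4% higher. Day 0 was fitted again with the later days here, and reads were scaled over the 14 libraries.

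Mitotic genes differed more on day 2 than on day 0. The difference had risen in 31 of 37 by day 2 and fallen in 1 (28.6 and 24.6% of all genes), and by day 16 it had risen in 14 and fallen in 3 against day 0 (27.7 and 24.2% of all genes). All 37 were higher after KCl on day 2 (median 3.48) and on day 16 (median 2.85). CDC20 had 1236 and 1508 reads on day 2 and 888 and 1013 on day 16 after KCl, against 32.2 and 54.6 and then 52.7 and 37.2 after DXR, and the change of the difference from day 0 to day 16 did not pass the test (0.14 ± 0.26, adjusted p = 0.677). Replication genes were higher after KCl in 35 of 37 on day 2 and 34 on day 16, LIG1 now included (0.94 ± 0.13 on day 16). LMNB1 had 143 and 200 reads after KCl on day 0, 592 and 773 on day 2 and 623 and 613 on day 16, against a mean of 57.9 after DXR on day 16, and its difference was larger on day 16 than on day 0 (1.85, adjusted p = 6.83e-05).

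Between day 0 and day 2 the difference fell in 13 of 22 osmotic genes, 18 of 27 of the integrated stress response and 14 of 23 of cholesterol synthesis, against 24.6% of all genes. By day 16 it had fallen in 20 of 27 genes of the integrated stress response and 14 of 23 of cholesterol synthesis, while among osmotic genes it had risen in 7 and fallen in 8, and 8 of 22 were higher and 2 lower after KCl. For the unfolded protein response it had risen in 11 of 21 and fallen in 4 on each later day. AKR1B1 differed by 3.52 ± 0.15 on day 0, 0.97 ± 0.15 on day 2 and -0.13 ± 0.15 on day 16, where it had 9527 and 9169 reads after KCl and 12061 and 8732 after DXR. ATF4 differed by 1.89 ± 0.09, then -0.16 ± 0.09 and 0.03 ± 0.09, SQLE by 1.97 ± 0.17, then -0.08 ± 0.17 and 0.10 ± 0.17, and COL1A1 by -1.94 ± 0.12, then 0.03 ± 0.12 and 0.12 ± 0.12. The lists of the integrated stress response and cholesterol synthesis had medians between -0.08 and 0.02 on both later days. C11orf96 turned from 5.23 ± 0.22 on day 0 to -1.74 ± 0.22 on day 16. The ribosomal protein genes, had 60 of 80 members higher after KCl on day 16 (median 0.31), and the difference had risen since day 0 in 44 of 80, or 55%, against 27.7% of all genes.

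Among p53 targets the difference moved up between day 0 and day 16 in 21 of 29 (27.7% of all genes). On day 2, 20 of 29 were lower after KCl and none higher (median -0.40), and on day 16 14 were lower and 2 higher (median -0.16). CDKN1A differed by -1.77 ± 0.06 on day 0, -0.88 ± 0.06 on day 2 and -0.39 ± 0.06 on day 16, and TP53I3 by -3.85 ± 0.20, then 0.11 ± 0.20 and 0.07 ± 0.20. SULF2 kept a large difference, of -3.35 ± 0.31 on day 2 and -2.37 ± 0.31 on day 16. IL6 was lower after KCl on day 16 as on day 0 (-0.99 ± 0.30, adjusted p = 0.0251) and did not pass the test on day 2 (adjusted p = 0.285), while CCL2 did not pass the test on any of the 3 days.

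**Figure D5:**
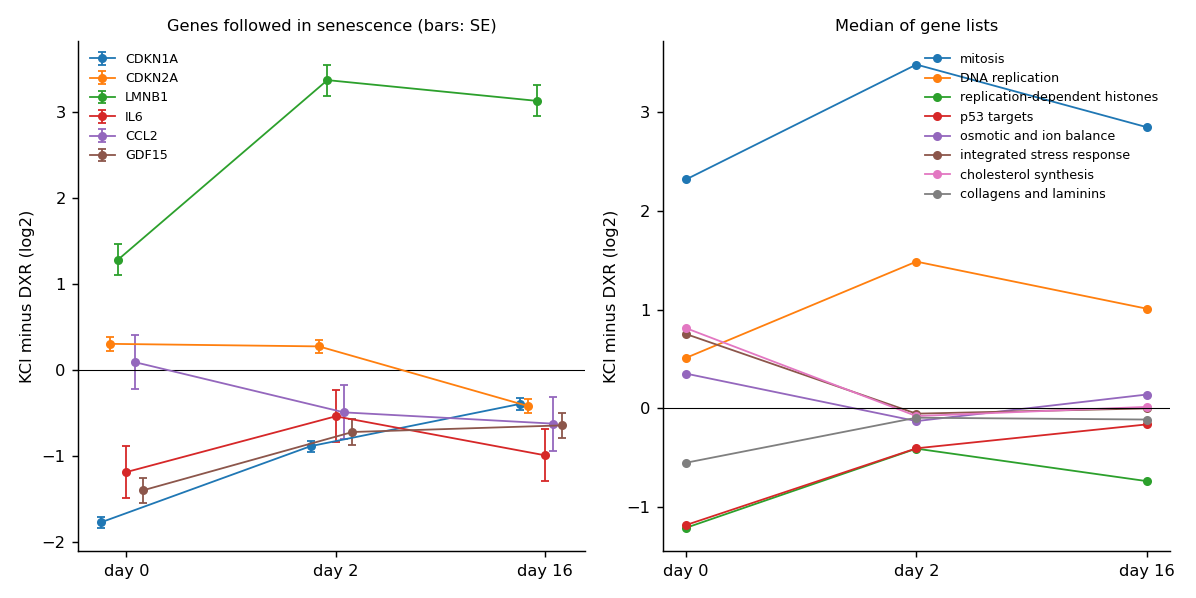
KCl minus DXR (log2, y axis) on days 0, 2 and 16, from 1 fit of 14 libraries. Left, 6 genes with SE bars, where LMNB1 rises from 1.28 to 3.13 and CDKN1A moves from -1.77 to -0.39; right, medians of 8 gene lists, where mitosis stays above 2 while the integrated stress response and cholesterol synthesis move to near 0.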

How the data were processed

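WI-38 cells were sequenced by the authors as mRNA libraries (paired reads, NovaSeq), 2 per group. Per the submitters' processing notes, Trim Galore, HISAT2, HTSeq, featureCounts and DESeq2 were used with GRCh38, versions not given in the sources used here. For each treated group the authors deposited 1 table of a comparison with Untreated, whose fold changes, SE, statistics and p-values were not used. The only column used was the mean signal, which the authors made by dividing gene counts by size factors and averaging over the 4 libraries of the table. Of 52 files, 27 repeated the table of their group, which left 25 tables, and no table held columns of other samples.

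Whole reads of each library were recovered from the printed digits of these means (Python 3.11.15, NumPy 2.4.6, SymPy 1.14.0). A single solution was found for 100% of genes in the KCl table of day 0, 96.96% in the DXR table of day 0 and 78.62% in the DXR table of day 1. Day 1 fell short of the 80% required. Genes without a single DXR solution entered as 1 pooled DXR value with weight 2. Rows naming no gene, at most 0.00223% of reads, were left out.

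Reads were scaled by median-of-ratios size factors, put on the scale log2(CPM + 0.5) and fitted with limma 3.58.1 (R 4.3.3, trend along the mean) over the 6 libraries of Untreated, KCl and DXR. The test was 2-sided with Benjamini-Hochberg adjustment, called at 0.05. KCl minus DXR is a direct contrast, so the shared Untreated libraries add only to the estimate of spread, but both differences from Untreated share them. The paper calls the libraries of a group independent samples, without saying whether they were separate cultures, and p-values measure the spread between these libraries. Tested on simulated reads of 14859 genes with 200 changed, the fit recovered 89% of genes changed by 1 on the log2 scale and 100% of those changed by 2. In the data 61.1% of genes were called and some pairs of libraries differed widely. The simulation does not cover that setting. Untreated libraries were the shallowest, which limits the differences from Untreated most.

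The gene rule and the 24 gene lists were chosen with earlier results of these data known. Named genes were the 12 largest called rises and the 12 largest falls with at least 100 reads in the higher group, the 3 largest called members of each list, and CDKN1A, CDKN2A, LMNB1, IL6, CCL2 and GDF15. Other list members, and EEF1B2, were named after their values were seen. Unnamed clones were counted only, and some named genes are not reported here. Promoters and gene spans came from RefSeq (GRCh38.p14) by symbol. Alternatives changed the pseudocount, filter, scaling, model, libraries and fold limit.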

Additional observations from a re-analysis of the deposited data

Results flagged for a closer look

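In the fit of 14 libraries, the difference between KCl and DXR was not the same at day 0 and later, by the test of the change itself (limma, Benjamini-Hochberg adjustment). It changed by day 2 in 7904 genes and by day 16 in 7710. CDKN1A, p21, moved up by 1.37 on the log2 scale from day 0 to day 16 (adjusted p = 1.94e-06). KCl and DXR thus lay closer together, and this change alone does not tell in which group the level moved. GDF15 moved up by 0.754 (adjusted p = 0.0085). LMNB1 moved up by 1.85 (adjusted p = 6.83e-05). CDKN2A, p16, moved the other way, by -0.724 (adjusted p = 0.000171), from 0.30 on day 0 to -0.42 on day 16. All these tests share the day 0 libraries.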

How the results depend on the processing

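No paired analysis was possible because the recovered libraries carry no replicate number, so the fit with the replicate number as a block was not run; day 1 was not run either. No called gene among the 93 named ones changed direction under the alternatives run, and CD14 and TEK lost the call with the spread taken from all recovered libraries. Most of the named genes were chosen for large called differences in these same libraries, so a change of direction was unlikely from the start. Scaling by library totals moved the median of all genes from 0.00196 to 0.0715 and the share of calls that were higher from 48.9 to 55%. With a log2 difference of at least 1 required, calls were 1066 higher and 1510 lower for KCl minus DXR, 1055 and 1330 for KCl against Untreated, 586 and 481 for DXR against Untreated, 256 and 77 on day 2, 300 and 265 on day 16, and 1696 and 1038 and then 1433 and 1128 for the change from day 0 to day 2 and to day 16.

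List medians moved by more than the spread between libraries as follows. With a pseudocount of 0.1 they were 0.611 for replication, 2.46 for mitosis, -0.522 for interferon genes and -1.25 for neurons, and with 2 they were 0.405, 1.59, -0.375 and -0.589, with -0.907 for histones, -0.48 for collagens and -0.861 for proteases. With no filter they were 0.0431 for calcium, -1.1 for p53, -0.269 for histones, -0.428 for collagens, -0.861 for proteases, -0.393 for interferon, 0.327 for heat shock, -0.108 for endothelial, -0.0589 for white blood and -0.0854 for neuron markers. With means of at least 100 they were 0.597 for replication, -0.685 for collagens and 0.00795 for glycolysis. With library totals they were 0.0172 for calcium, 0.576 for replication, -0.471 for collagens, -0.829 for proteases, -0.389 for interferon, -0.238 for the unfolded protein response, 0.525 for heat shock, 0.159 for glycolysis, -0.369 for mitochondrial genes, 0.0649 for ribosomal proteins and -0.237 for fibroblast markers, the last -0.291 with the authors' size factors. With voom on genes with a single solution they were 0.0509 for calcium, 0.609 for replication, 2.46 for mitosis, -0.989 for proteases, -0.501 for interferon, 0.648 for heat shock, -0.0303 for glycolysis, 0.752 for fibroblast and -1.37 for neuron markers, and with those genes alone 0.042 for calcium, -0.471 for collagens, 0.643 for heat shock, -0.0272 for glycolysis and 0.749 for fibroblast markers, where fewer members remain.

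Leaving out 1 library at a time, where the lone library of a group is assumed to vary like the other groups, gave 3491 to 4631 genes higher and 3717 to 4819 lower for KCl minus DXR, and 1847 to 2478 higher and 1880 to 2385 lower for DXR against Untreated. Medians ranged from -0.49 to 0.151 for immediate early genes, -0.068 to 0.0428 for calcium, 0.222 to 0.447 for osmotic genes, -1.38 to -0.972 for p53, 0.465 to 0.55 for replication, 2.19 to 2.45 for mitosis, -1.33 to -1.02 for histones, -0.595 to -0.391 for collagens, -1.2 to -0.675 for proteases, -0.472 to -0.0576 for cytokines, -0.548 to -0.279 for interferon, -0.331 to -0.195 for the unfolded protein response, 0.354 to 0.644 for heat shock, 0.605 to 0.898 for cholesterol, -0.0886 to 0.119 for glycolysis, -0.474 to -0.349 for mitochondrial genes, -0.11 to 0.0647 for ribosomal proteins and -0.364 to 0.769 for fibroblast markers. The cause of these moves was not tested.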
